A study of Mus musculus with 10 samples.

Results

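The MHC class II genes and their regulator Ciita comprise 10 genes here, of the 53715 counted in each library. They were listed by name, with no measured value in the rule, and all 10 passed the filter on low counts in every fit. They fall into 2 sets of 5. The first holds the classical chains H2-Aa, H2-Ab1 and H2-Eb1, the invariant chain Cd74 and Ciita. The second holds the peptide-loading DM genes H2-DMa, H2-DMb1 and H2-DMb2 and the DO genes H2-Oa and H2-Ob. The cells were CD11b+ cells of untreated male mice aged 3 months, labelled C57BL/6 and given as C57BL/6 J in the study's methods, and were selected with magnetic beads from dissected midbrain and striatum after perfusion, papain digestion and a Percoll step. Bulk RNA was sequenced with MARS-seq, a protocol that reads the 3′ ends of poly-A transcripts, in a pilot cohort of 2 midbrain (Mdb) and 2 striatum (Str) libraries and in a second cohort of 6. In 2 libraries of the second cohort the title names one region and the file name the other, and these were left out of the comparisons, so that the second cohort had 2 libraries per region as well. CD11b is shared by microglia and other myeloid cells. By flow cytometry the study classed nearly all viable selected cells as microglia and a small part as infiltrated myeloid cells. The sources used here do not tell which midbrain and striatum libraries came from the same mouse.

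The 8 libraries compared held from 575709 to 8463782 counts. The shallowest was replicate 3 of the striatum in the second cohort, where 3 counts, the least that was taken as detected, equalled 5.24 CPM. CPM are counts relative to a library's total, adjusted with edgeR's TMM factors. In the deepest library, replicate 2 of the pilot striatum, 3 counts equalled 0.357 CPM. Reads copied by amplification are not independent, so these floors hold for counting error alone. All 10 microglial markers were detected in every library. CPM values compare 1 gene between libraries and not the genes with each other. The p-values measure the spread between these libraries, which may be partly technical.

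MHC class II molecules display peptides from the endocytic pathway to CD4+ T cells. An alpha and a beta chain assemble with the invariant chain, which fills the groove until it is cut in late endosomes. The remaining fragment is then exchanged for peptide with the help of the DM dimer, and the DO dimer restrains DM. Transcription of the classical chains depends on CIITA, a co-activator that does not bind DNA itself and is recruited by factors on the X and Y boxes of class II promoters. In the healthy brain, microglia carry little MHC class II, and macrophages of the meninges, vessels and choroid plexus can carry more.

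The promoters are shown because these genes share a control element, and not all of them moved together in the data that follow. Of the 10 members, 7 had an entry in the RefSeq promoter table (GRCm38.p6; from 250 bases before to 50 after the start), and H2-Ab1, Cd74 and Ciita had none. The letters searched were TGATTGG, the core of the Y box, and GNAAC, a core of the X box, with 10 to 40 bases between them and both strands read. Among all 32851 promoters of 300 bases, 7.82% held TGATTGG, 84.8% held GNAAC and 0.828% held both in this order and spacing, on either strand. The share on the gene's own strand alone was not computed. On the gene's own strand the pair was present in 5 members, H2-Aa, H2-Eb1, H2-DMb1, H2-Ob and H2-Oa, with 23 to 26 bases between the motifs. TGATTGG was present without the pair in H2-DMb2, whose RefSeq start lay 1942 bases from the start annotated in the counts. H2-DMa held neither TGATTGG nor the pair. Its RefSeq starts, however, lay 12350 and 9664 bases from the annotated start, so this window was not that of the counted gene. Capitals mark the motifs, read 5′ to 3′ on the gene's strand, and a match is a description and not a binding site.
H2-Aa, chr17:34287855-34287916, minus strand: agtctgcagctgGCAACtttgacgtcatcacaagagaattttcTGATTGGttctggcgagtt
H2-Eb1, chr17:34305764-34305824, plus strand: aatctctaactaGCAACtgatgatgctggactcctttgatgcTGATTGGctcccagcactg
H2-DMb1, chr17:34153085-34153146, plus strand: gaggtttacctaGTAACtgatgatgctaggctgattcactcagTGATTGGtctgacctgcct
H2-DMb2, chr17:34145110-34145175, plus strand: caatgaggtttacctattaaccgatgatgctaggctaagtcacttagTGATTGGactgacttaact
H2-Ob, chr17:34238806-34238864, plus strand: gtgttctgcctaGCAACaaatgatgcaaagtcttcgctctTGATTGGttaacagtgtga
H2-Oa, chr17:34092291-34092352, plus strand: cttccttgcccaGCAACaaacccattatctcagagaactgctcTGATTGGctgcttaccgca

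The comparison of the midbrain with the striatum asked whether microglia of these regions differ at rest. The classical chains, Cd74 and Ciita were higher in every midbrain library than in every striatum library of either cohort. Within the pilot cohort the fitted differences of these 5 genes were 2.71-fold to 3.77-fold, and within the second cohort 5.83-fold to 16.1-fold. The DM and DO genes, apart from the sparsely counted H2-DMb2, had fitted ratios of 0.625 to 1.39 in either cohort, and none of them passed the test of a cohort. In bulk RNA, fewer cells of a type and less RNA per cell cannot be told apart.

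**Figure D1:**
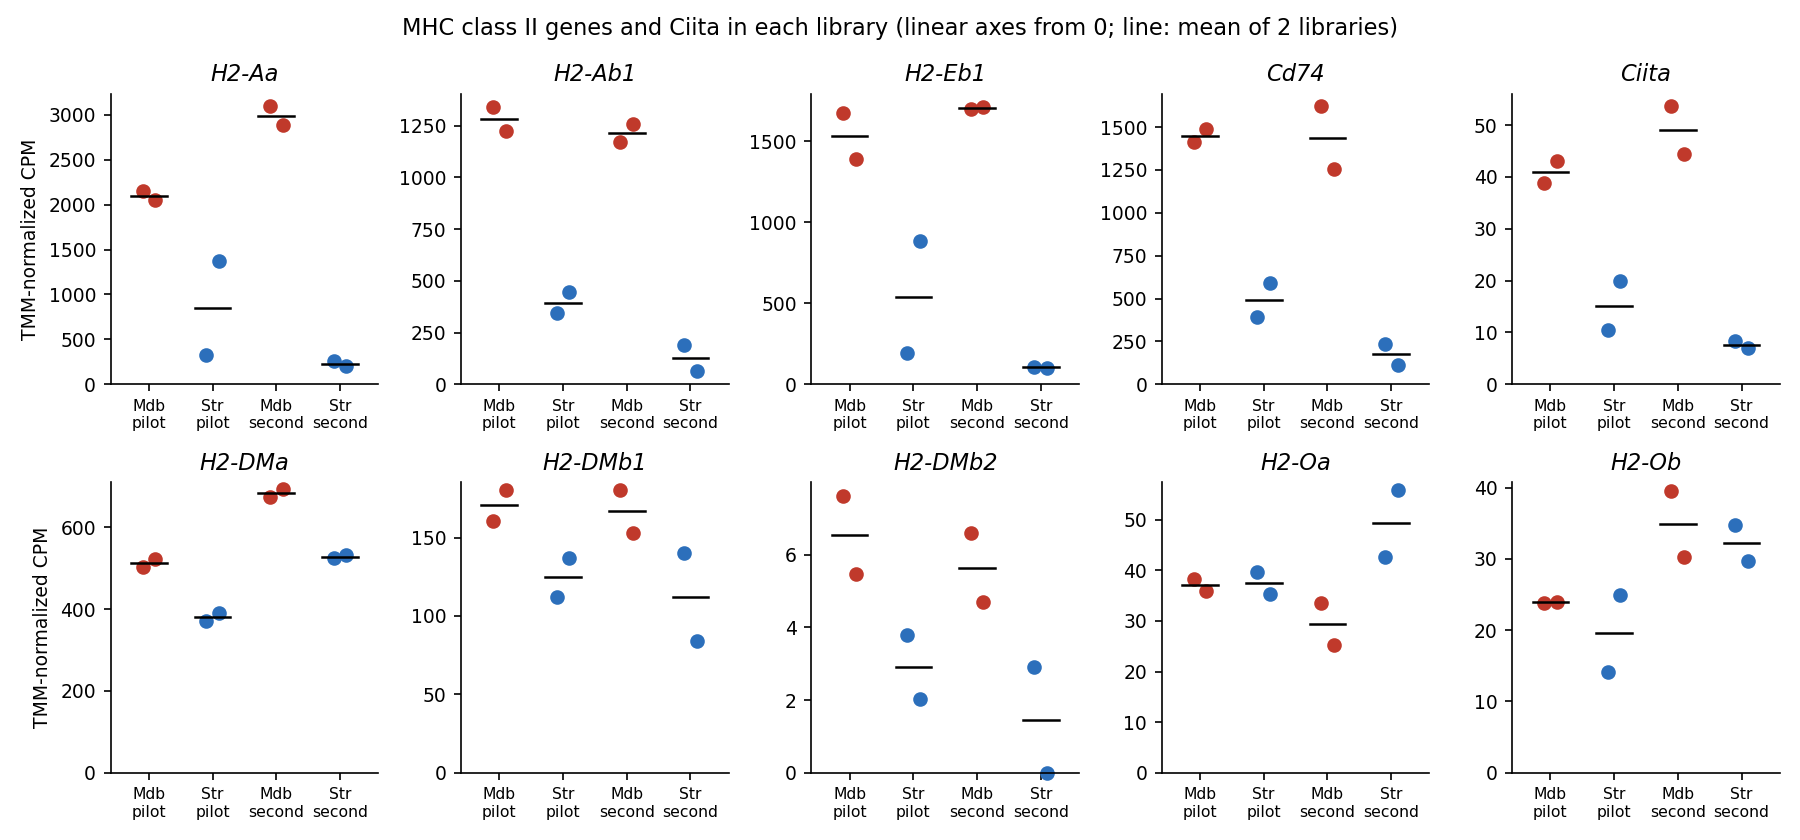
TMM-normalized CPM (y axis, linear from 0, a scale per panel) of the 10 genes in the 8 libraries, with midbrain in red, striatum in blue and a line at the mean of the 2 libraries of a group. In the upper row, holding the classical chains, Cd74 and Ciita, the midbrain points lie above all striatum points, and in the lower row, holding the DM and DO genes, the groups lie closer together or overlap.

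H2-Aa (ENSMUSG00000036594.14, chr17:34282744-34287827, minus strand, GRCm38) encodes the alpha chain of I-A. Its level was 2146 and 2049 CPM in the midbrain of the pilot cohort, against 327 and 1369 CPM in the striatum. The second cohort had 3092 and 2880 CPM in the midbrain and 257 and 199 CPM in the striatum. The regions did not overlap in either cohort, but the striatum libraries of the pilot cohort differed 4.18-fold from each other, with replicate 2 the higher. The group means were 2098 ± 68.1 (midbrain) and 848 ± 736 CPM (striatum) in the pilot cohort and 2986 ± 150 and 228 ± 40.7 CPM in the second (SD, n = 2 each). The order from high to low was midbrain second, midbrain pilot, striatum pilot and striatum second, and no neighbouring groups overlapped. The log2 fold change was 1.66 (SE 0.53) in the pilot cohort, where an unadjusted p of 0.0121 missed the threshold of 0.01 (limma, adjusted p = 0.393). It was 3.67 (SE 0.24) in the second cohort (limma, adjusted p = 6.47e-05).

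H2-Ab1 (ENSMUSG00000073421.5, chr17:34263209-34269418, plus strand) encodes the beta chain that pairs with H2-Aa. It was at 1341 and 1225 CPM in the midbrain and 346 and 444 CPM in the striatum of the pilot cohort. The midbrain of the second cohort was at 1171 and 1257 CPM and its striatum at 188 and 66.4 CPM, the last from 38 counts. Unlike H2-Aa, the gene was at a like level in both striatum libraries of the pilot cohort, and the midbrain groups of the cohorts overlapped (1283 ± 82.1 and 1214 ± 60.5 CPM, SD, n = 2 each). The striatum means were 395 ± 69.2 CPM in the pilot cohort and 127 ± 85.7 CPM in the second. Fitted log2 fold changes were 1.72 (SE 0.20; limma, unadjusted p = 1.09e-05, adjusted p = 0.0536) and 3.19 (SE 0.37; adjusted p = 0.00453). By p it ranked 3 of the 14972 genes tested in the pilot cohort and 8 of 13486 in the second.

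H2-Eb1 (ENSMUSG00000060586.10, chr17:34305877-34316199, plus strand) encodes the beta chain of I-E, whose alpha chain is not made in this strain. Its level was 1674 and 1391 CPM in the midbrain of the pilot cohort and 190.4 and 882 CPM in the striatum. Libraries of the second cohort had 1696 and 1714 CPM in the midbrain and 106 and 101 CPM in the striatum. As for H2-Aa, replicate 2 of the pilot striatum was the higher, here 4.63-fold, and still lay below both midbrain libraries. The 2 striatum libraries of the second cohort differed by only 1.05-fold. The means were 1533 ± 200 and 536 ± 489 CPM in the pilot cohort and 1705 ± 12.7 and 104 ± 3.34 CPM in the second (SD, n = 2 each). These gave log2 fold changes of 1.91 (SE 0.57; limma, unadjusted p = 0.00824, adjusted p = 0.365) and 4.01 (SE 0.25; adjusted p = 6.47e-05). By p, H2-Eb1 ranked 1 and H2-Aa 2 of all 13486 genes of the second cohort.

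The 2 relatives of H2-Eb1 next to it were hardly counted. H2-Eb2 had 0 to 8 counts in each of the 8 libraries, and the alpha chain pseudogene H2-Ea-ps had 0 counts in all of them. Both fell to the filter.

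Cd74 (ENSMUSG00000024610.14, chromosome 18) encodes the invariant chain. Its level was 1411 and 1488 CPM in the midbrain and 389 and 593 CPM in the striatum of the pilot cohort. Of the second cohort, the midbrain had 1620 and 1253 CPM and the striatum 237 and 112 CPM. The midbrain libraries of both cohorts lay together, and the striatum of the second cohort lay below that of the pilot cohort (174 ± 88.1 against 491 ± 144 CPM, SD, n = 2 each). Cd74 had log2 fold changes of 1.60 (SE 0.23; limma, unadjusted p = 6.51e-05, adjusted p = 0.103) and 2.98 (SE 0.33; adjusted p = 0.00318). The gene shares 12 exon bases with Mir5107.

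Ciita (ENSMUSG00000022504.10, chr16:10480059-10528418, plus strand) was at 38.7 and 43.2 CPM in the midbrain and 10.4 and 19.8 CPM in the striatum of the pilot cohort. The second cohort had 53.8 and 44.5 CPM in the midbrain and 8.33 and 6.99 CPM in the striatum, the last from 4 counts. Every midbrain library was above every striatum library, and the order of the groups was that of H2-Aa (41.0 ± 3.12, 15.1 ± 6.69, 49.1 ± 6.56 and 7.66 ± 0.946 CPM, SD, n = 2 each, for midbrain and striatum of the pilot and then the second cohort). Its log2 fold changes were 1.44 (SE 0.31; limma, unadjusted p = 0.0012, adjusted p = 0.212) and 2.54 (SE 0.48; unadjusted p = 0.00023, adjusted p = 0.0583). Dexi, on the opposite strand, overlaps 3.45% of the exon bases of Ciita, and the counting did not use strand.

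Ratios between genes within a library do not depend on its depth scaling. They compare counts and not molecules, and their exact binomial 95% intervals cover counting error only. The H2-Aa to H2-Ab1 ratio was 1.60 and 1.67 in the midbrain of the pilot cohort and 2.64 and 2.29 in that of the second. In the striatum it was 0.946 and 3.08 in the pilot cohort and 1.37 and 3.00 in the second. The intervals of the pilot striatum libraries, 0.885 to 1.01 and 2.97 to 3.20, did not overlap. Midbrain minus striatum, the log2 ratio differed by -0.06 in the pilot cohort and 0.28 in the second (exact permutation test within cohorts, two-sided p = 0.889). The Cd74 to H2-Ab1 ratio was steadier, from 0.997 to 1.68 over the 8 libraries, with a difference of -0.12 and -0.31 (exact permutation p = 0.278). The ratio of H2-Eb1 to H2-Ab1 varied from 0.550 to 1.99, both in the pilot striatum (exact permutation p = 0.50).

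**Figure D2:**
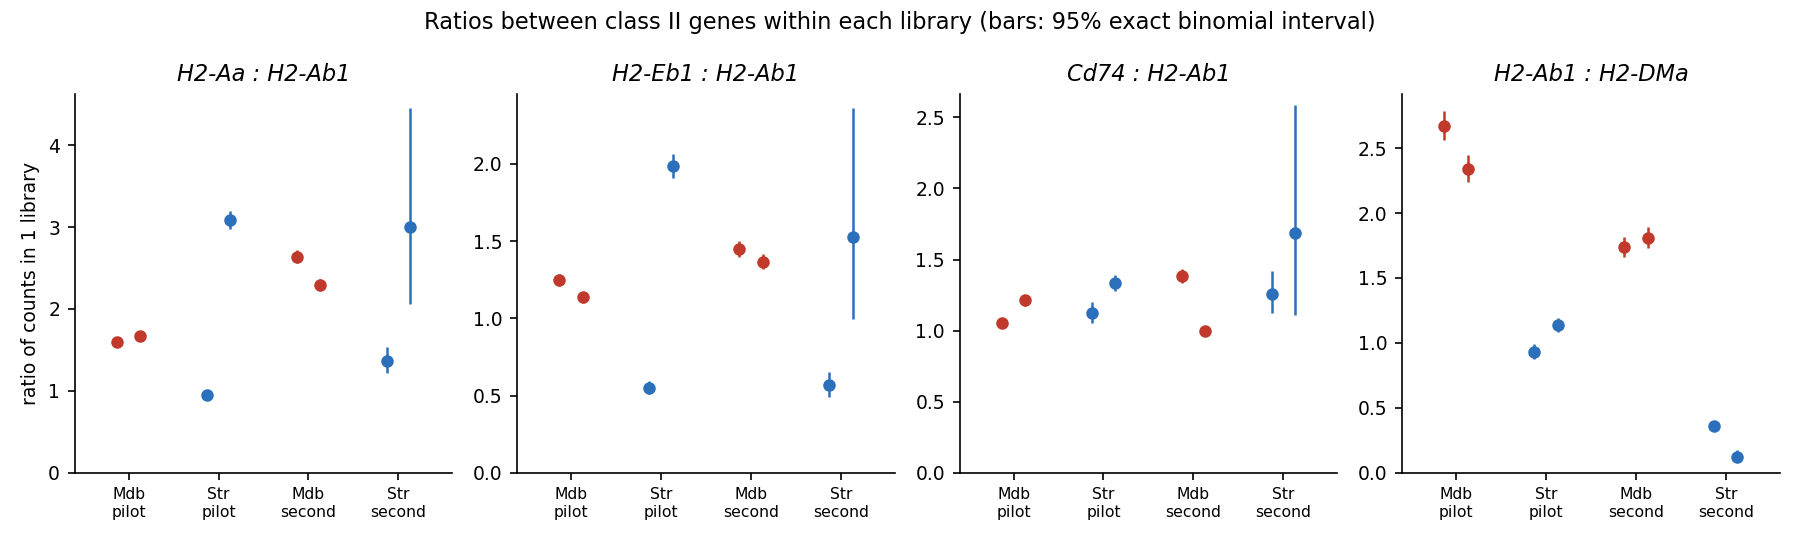
Ratio of the counts of 2 genes in the same library (y axis, linear from 0, a scale per panel) in the 8 libraries, with midbrain in red, striatum in blue and bars for the 95% exact binomial interval. H2-Aa to H2-Ab1 spans 0.946 to 3.08 within the pilot striatum, while H2-Ab1 to H2-DMa is higher in every midbrain library than in every striatum library.

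H2-DMa (ENSMUSG00000037649.9, chr17:34135182-34139101, plus strand) encodes the alpha chain of the DM dimer. Its level was 502 and 524 CPM in the midbrain and 371 and 391 CPM in the striatum of the pilot cohort. Both regions were higher in the second cohort, at 674 and 695 CPM in the midbrain and 526 and 531 CPM in the striatum. Replicates were close, and the midbrain libraries lay above the striatum libraries within each cohort, but the striatum of the second cohort lay above the midbrain of the pilot cohort. Fitted log2 fold changes were 0.44 (95% interval 0.05 to 0.82) and 0.36 (-0.14 to 0.86), with unadjusted p of 0.0302 and 0.143 (limma). The H2-DMa interval of the second cohort ended below the lowest bound of the classical chains there, 2.38 for H2-Ab1, while in the pilot cohort it overlapped those of H2-Aa (0.46 to 2.87) and H2-Eb1 (0.63 to 3.20). H2-Ab1 had 2.67 and 2.34 counts for each of H2-DMa in the pilot midbrain and 0.932 and 1.13 in the pilot striatum. The second cohort had ratios of 1.74 and 1.81 in the midbrain and 0.357 and 0.125 in the striatum. It was thus higher in every midbrain library, by 1.28 on the log2 scale in the pilot cohort and 3.07 in the second (exact permutation p = 0.0556, the smallest that 36 labelings of the libraries within cohorts can give).

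The beta chains of DM are encoded by the neighbouring genes H2-DMb1 and H2-DMb2. H2-DMb1 (ENSMUSG00000079547.3, chr17:34153072-34160230, plus strand) was at 160.3 and 181 CPM in the midbrain and 112 and 137 CPM in the striatum of the pilot cohort. Levels in the second cohort were 180.4 and 153 CPM in the midbrain and 140.2 and 83.9 CPM in the striatum. The regions did not overlap within a cohort, and the log2 fold changes of 0.46 (95% interval 0.03 to 0.88) and 0.48 (-0.19 to 1.14) missed the threshold (limma, unadjusted p = 0.0371 and 0.142). The ratio of H2-DMb1 to H2-DMa was 0.158 to 0.351 over the 8 libraries, and the regions overlapped (exact permutation p = 0.611).

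H2-DMb2 (ENSMUSG00000037548.14, chr17:34143307-34151553, plus strand) was near the limit of detection. It had 46 and 31 counts in the midbrain and 20 and 17 in the striatum of the pilot cohort, or 7.62, 5.46, 3.78 and 2.02 CPM. The second cohort had 31 and 20 counts in the midbrain (6.59 and 4.68 CPM) and 8 and 0 in the striatum (2.90 and 0 CPM). A count of 0 in the shallowest library allows a level of up to 5.24 CPM, above 1 of the midbrain libraries. Its log2 fold changes of 1.29 (0.20 to 2.38) and 1.60 (-0.15 to 3.35) had wide intervals and missed the threshold (limma, unadjusted p = 0.0251 and 0.0693). H2-DMb1 and H2-DMb2 are close paralogs, and how the counting split reads between them was not tested.

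The DO genes were at about 14 to 56 CPM. H2-Oa (ENSMUSG00000024334.8, chr17:34092340-34095234, plus strand), the alpha chain of DO, was at 38.2 and 35.9 CPM in the midbrain and 39.7 and 35.3 CPM in the striatum of the pilot cohort. Levels in the second cohort were 33.6 and 25.3 CPM in the midbrain and 42.7 and 55.9 CPM in the striatum, the latter from 118 and 32 counts. The regions overlapped in the pilot cohort, and in the second both striatum libraries lay above both midbrain libraries. The log2 fold changes were 0.00 (-0.46 to 0.46) and -0.68 (-1.42 to 0.06), neither past the threshold (limma, unadjusted p = 0.997 and 0.0698). On the opposite strand, BC051537 overlaps 15.2% of its exon bases. In the striatum of the 2 cohorts H2-DMa had 9.36, 11.1, 12.3 and 9.50 counts for each of H2-Oa. In the midbrain it had 13.1 and 14.6 in the pilot cohort and 20.1 and 27.5 in the second, above all striatum libraries (exact permutation p = 0.0556, the smallest possible).

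H2-Ob (ENSMUSG00000041538.15, chr17:34238903-34245907, plus strand), the beta chain of DO, was at 23.8 and 24.0 CPM in the midbrain and 14.2 and 25.0 CPM in the striatum of the pilot cohort. Levels in the second cohort were 39.5 and 30.2 CPM in the midbrain and 34.8 and 29.7 CPM in the striatum. The regions overlapped in both cohorts. The log2 fold changes were 0.29 (-0.40 to 0.99) and 0.03 (-0.75 to 0.80), and both intervals lay within a 2-fold change in either direction (limma, unadjusted p = 0.367 and 0.944).

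In the pilot cohort 4 of the 10 members passed the unadjusted p of 0.01 with higher levels in the midbrain (H2-Ab1, H2-Eb1, Cd74 and Ciita), where 2.09% of all genes tested did. In the second cohort 5 did (those 4 and H2-Aa), where 2.88% of all genes did, and the 4 shared calls stood beside 1.18% of the genes tested in both. No DM or DO gene was called in either cohort with limma or edgeR's quasi-likelihood test, and at an unadjusted p under 0.05 (limma) there were 3 in the pilot cohort, the DM genes, where 10.9% of all genes were, and 0 in the second, where 10.6% were. The median log2 fold change of the classical chains, Cd74 and Ciita was 1.66 in the pilot cohort and 3.19 in the second, and that of the DM and DO genes was 0.44 and 0.36, beside 0.02 and 0.00 over all genes tested. Both midbrain libraries lay above both striatum libraries for 8 members, all but H2-Oa and H2-Ob, in the pilot cohort, where 20.2% of all genes did, and for the same 8 in the second, where 24.5% did. In both cohorts at once 8.14% of all genes did so. The reverse order in the second cohort held for H2-Oa and for 17.4% of all genes. Permuting the regions within cohorts gave each of these 8 genes an exact two-sided p of 0.0556, the smallest possible, and gave 0.167 for H2-Oa and 0.444 for H2-Ob. In the pilot cohort the outcome for H2-Aa, which was not called, and for H2-Eb1 and Ciita, which were, depended on single libraries. H2-Aa passed when either striatum library was left out, with a log2 fold change of 0.61 without replicate 1 and 2.71 without replicate 2. H2-Eb1 missed the threshold when either midbrain library was left out, at 1.81 without replicate 1 and 2.09 without replicate 2, and passed at 0.79 without striatum replicate 1 and 3.03 without striatum replicate 2. Ciita missed it at 1.39 without midbrain replicate 2. Without striatum replicate 2, 7 members passed, H2-DMa (0.50) and H2-DMb1 (0.63) among them, and H2-DMa passed also without striatum replicate 1 (0.39). In the second cohort H2-DMb2 passed without striatum replicate 1 (2.69).

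In the fit of both cohorts together, with the cohort as a covariate and 4 libraries per region, 5 of the 10 members had a Benjamini-Hochberg adjusted p under 0.05 with higher levels in the midbrain, where 0.975% of the 14053 genes tested did. The log2 fold changes (limma) were 2.34 for H2-Ab1 (SE 0.29, adjusted p = 0.0137), 2.21 for Cd74 (SE 0.28, adjusted p = 0.0137), 1.77 for Ciita (SE 0.28, adjusted p = 0.0181), 2.80 for H2-Eb1 (SE 0.47, adjusted p = 0.021) and 2.59 for H2-Aa (SE 0.44, adjusted p = 0.0226). H2-Ab1 and Cd74 ranked 2 and 4 of all genes by p. H2-DMa had a small difference with a narrow interval, 0.43 (0.19 to 0.67; adjusted p = 0.0966), and H2-DMb1 was alike at 0.48 (0.13 to 0.83; adjusted p = 0.187). H2-DMb2 was at 1.42 (adjusted p = 0.134), H2-Oa at -0.21 (-0.64 to 0.22; adjusted p = 0.668) and H2-Ob at 0.21 (-0.28 to 0.70; adjusted p = 0.706). The adjusted calls depended on which library was left out. Without midbrain replicate 1 of the pilot cohort, and without striatum replicate 1 of the second, 0 members passed in limma, as did 0 of all genes. Without striatum replicate 1 of the pilot cohort, and without the shallow striatum replicate 3 of the second, 2 members passed, H2-Ab1 and Cd74. In the other 4 such fits 5 members passed. The DM and DO genes passed in none of these fits, and DESeq2 on all 8 libraries called H2-DMa (0.43, adjusted p = 0.00828). In all 8 fits without 1 library the same 8 members, all but H2-Oa and H2-Ob, had an unadjusted p under 0.05, as 10.1% to 16.7% of all genes did. The log2 fold change over these fits ran from 2.09 to 2.56 for H2-Ab1 (adjusted p from 0.00118 to 0.106), from 2.35 to 3.25 for H2-Aa and from 2.49 to 3.55 for H2-Eb1.

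**Figure D3:**
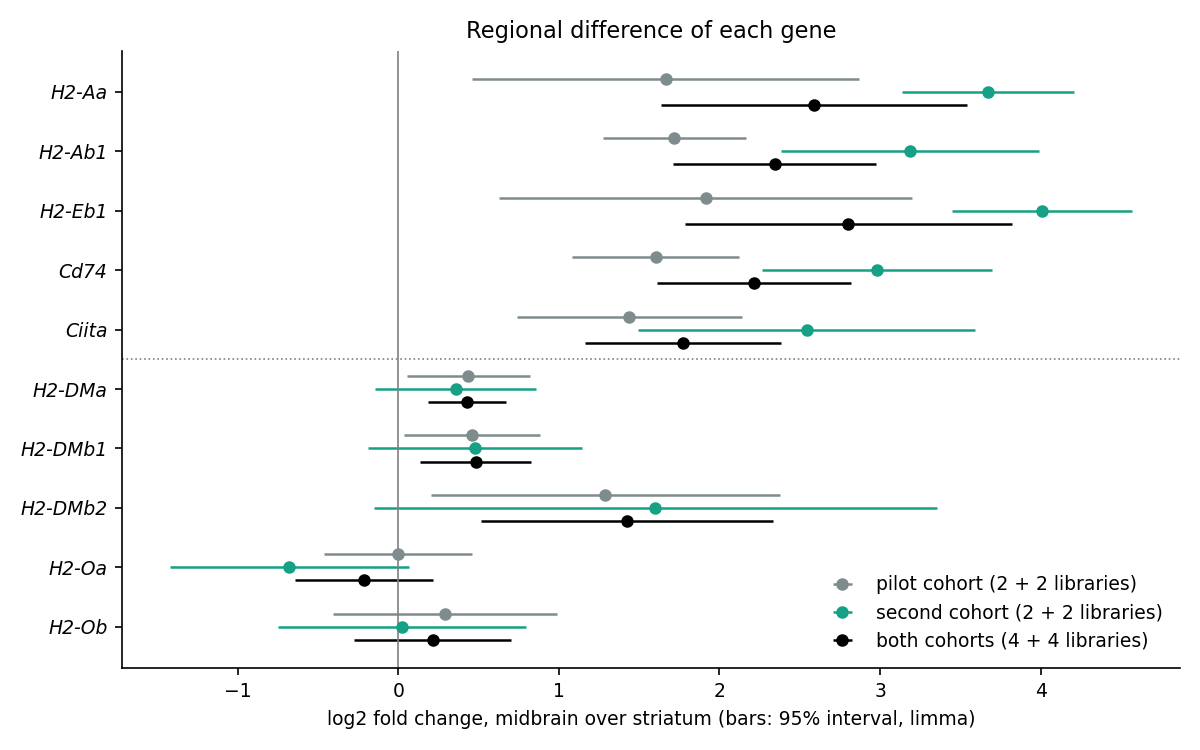
Log2 fold change, midbrain over striatum (x axis), of each gene in the pilot cohort, the second cohort and both together, with 95% intervals from limma. Above the dotted line all intervals of the classical chains, Cd74 and Ciita lie above 0, and below it those of all genes but H2-DMb2 reach at most 1.14.

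The difference was larger in the second cohort for all 5 genes of the first set, and this was tested as an interaction of region and cohort. The added log2 change in the second cohort was 1.98 for H2-Aa (SE 0.69), 1.36 for H2-Ab1 (SE 0.43), 2.09 for H2-Eb1 (SE 0.78), 1.29 for Cd74 (SE 0.42) and 1.07 for Ciita (SE 0.59). No member passed the adjusted p of 0.05 (limma, lowest adjusted p = 0.86), and neither did any other gene (0% of 14053), so a difference between the cohorts was not shown. At an unadjusted p under 0.05 there were 4 members, H2-Aa, H2-Ab1, H2-Eb1 and Cd74, where 5.49% of all genes were, and 5 members with edgeR's quasi-likelihood test, which left 0 after adjustment. Without striatum replicate 1 of the pilot cohort, H2-Aa (2.98) and H2-Eb1 (3.15) passed (limma, adjusted p = 0.00286 each, from 0.00286 to 1.00 over the fits that left out 1 library). For the DM and DO genes the added change ran from -0.70 (H2-Oa) to 0.32 (H2-DMb2).

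Of the 10 members, 8 lie together on chromosome 17, in the order H2-Oa, H2-DMa, H2-DMb2, H2-DMb1, H2-Ob, H2-Ab1, H2-Aa and H2-Eb1. The classical chains sit side by side at one end, and these 3 were the genes called there. Between the DM genes and H2-Ob lie 4 genes of class I presentation, the peptide transporter genes Tap1 and Tap2 and the immunoproteasome genes Psmb8 and Psmb9, and Brd2 lies between H2-Oa and H2-DMa. In the fit of both cohorts their log2 fold changes were 0.35 (Tap1), 0.10 (Tap2), 0.24 (Psmb8), 0.08 (Psmb9) and 0.29 (Brd2), and none was called in any of the fits. A gene without a symbol between H2-Ob and H2-Ab1, ENSMUSG00000092222.1, had at most 13 counts in a library and was at -1.93 (limma, adjusted p = 0.141). Cd74 and Ciita, called too, lie on other chromosomes.

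**Figure D4:**
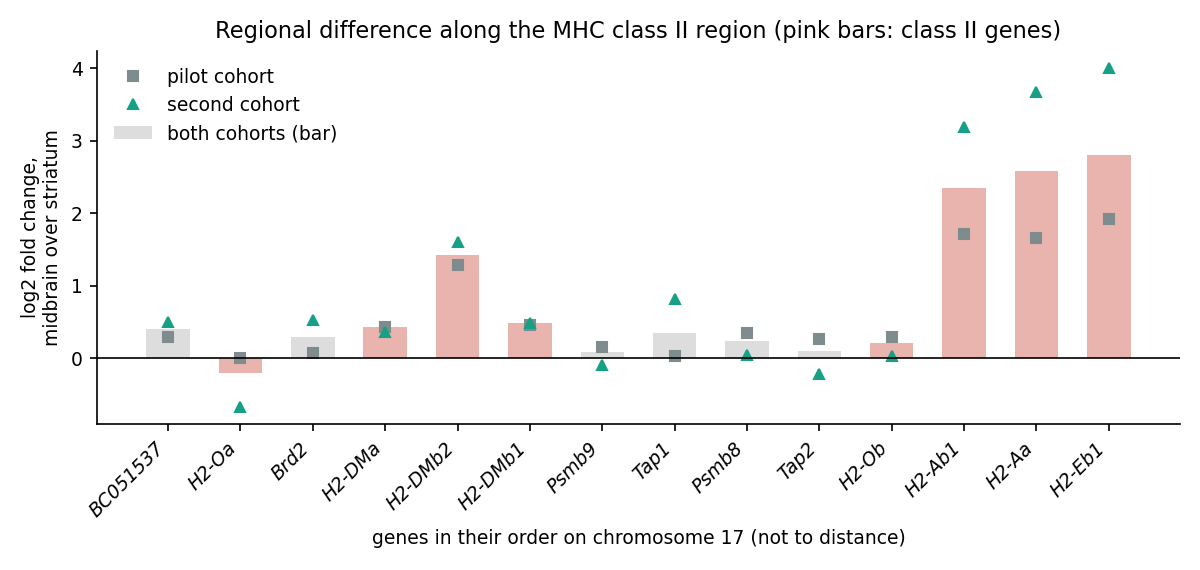
Log2 fold change, midbrain over striatum (y axis), of the tested genes with a symbol in their order along the class II region of chromosome 17, as bars for both cohorts together and as squares and triangles for the pilot and second cohorts. The bars of H2-Ab1, H2-Aa and H2-Eb1 at the right reach 2.34 to 2.80, and those of the other genes, apart from H2-DMb2 at 1.42, stay under 0.5, while the second cohort alone reaches 0.82 for Tap1 and 0.53 for Brd2.

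Genes that act with the members were read from 2 lists. Of the 14 regulators reported, the RFX and NF-Y subunits and Creb1 that occupy the X and Y boxes, the factors Irf1, Irf8 and Spi1, and the interferon-gamma receptor chains and their kinases, 0 were called in either direction in any fit. Their median log2 fold change in both cohorts together was 0.00, with 7 above 0 and 7 below, and the range ran from -0.28 (Creb1) to 0.45 (Rfx5). Irf1, which drives an interferon-responsive promoter of Ciita, was at 0.38 (limma, adjusted p = 0.26; unadjusted p = 0.0242). Of 10 lysosomal genes for cutting antigen and invariant chain or for turnover of class II, 0 were called, and 9 were below 0, with a median of -0.28. Among these Ctss, the protease that cuts the invariant chain, was at -0.35 (adjusted p = 0.381) and Ctsl at -0.59 (adjusted p = 0.0817). The ligase gene March1, which marks surface class II for removal, was at -0.53 (adjusted p = 0.391). These counts of 0 are from limma. At an unadjusted p under 0.05 in both cohorts together there were 1 of these regulators, Irf1, and 2 lysosomal genes, Ctsl and March8, where 14.6% of all genes were.

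Many markers of other cells that CD11b beads can take moved with the first set. All 8 markers of border macrophages (Mrc1, Cd163, Lyve1, Pf4, Cbr2, Ms4a7, F13a1 and Clec12a) were higher in the midbrain and called in each cohort. In both cohorts together 7 were called, with a median log2 fold change of 1.80. Of all genes tested, 2.09% were called higher in the midbrain in the pilot cohort, 2.88% in the second and 0.975% in both together. The summed level of the 8 markers was 1391 to 1659 CPM in the midbrain and 544 to 821 CPM in the striatum of the pilot cohort. In the second cohort it was 2326 to 2614 CPM in the midbrain and 311 to 344 CPM in the striatum. This order of the groups was that of H2-Aa, H2-Eb1 and Ciita. For H2-Ab1 and Cd74 the midbrain groups of the cohorts overlapped, while the marker sums did not. Within the pilot striatum the library with more of the classical chains, replicate 2, also had the higher sum. So did replicate 1 of the pilot midbrain and of the second striatum. In the second midbrain, replicate 1 had more of the classical chains (5959 against 5851 CPM) and the lower sum (2326 against 2614 CPM). All 10 microglial markers had log2 fold changes below 0 (median -0.54; 2 called, Siglech and Olfml3, where 0.0854% of all genes were called higher in the striatum), and their sum was 12041 to 15649 CPM in the midbrain and 17336 to 24216 CPM in the striatum. No marker of these 2 lists was at 0 in any library. The part of border macrophages in the class II difference was not tested.

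**Figure D5:**
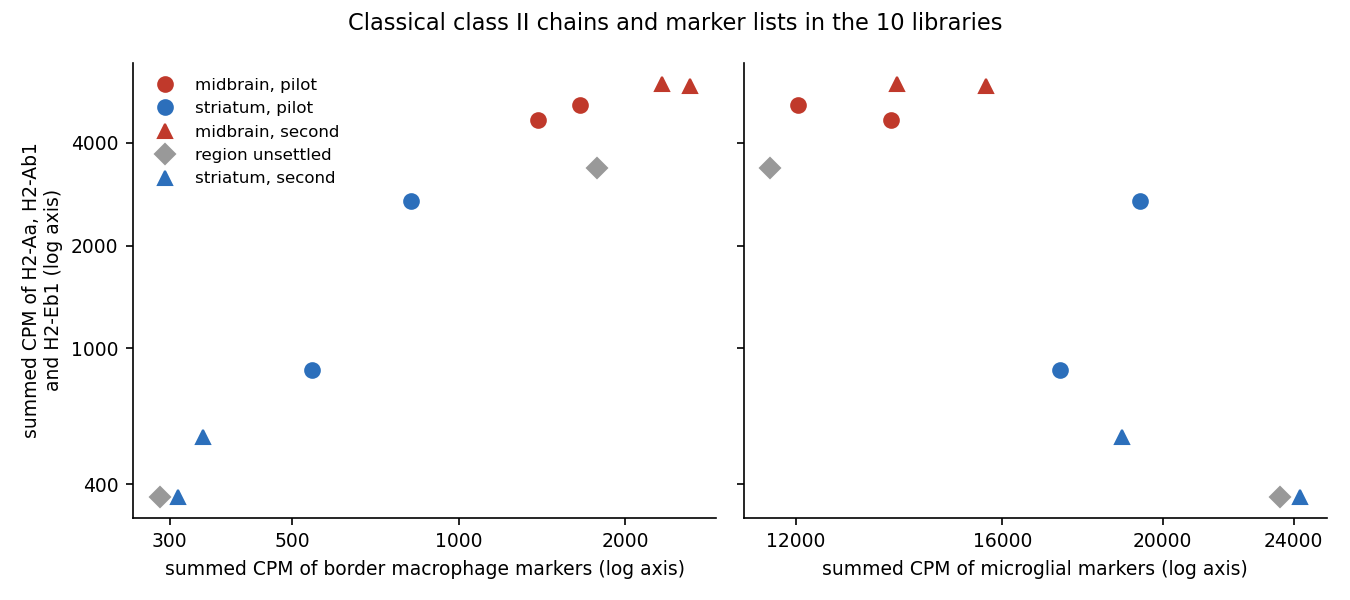
Summed CPM of H2-Aa, H2-Ab1 and H2-Eb1 (y axis, log) against the summed CPM of 8 border macrophage markers (left, x axis, log) and of 10 microglial markers (right, x axis, log) in the 10 libraries, the 2 of unsettled region in grey. On the left the striatum libraries lie at the lower left, from 311 CPM of markers and 367 of class II. The midbrain libraries lie at the upper right, up to 2614 CPM of markers in 1 library and 5959 of class II in another. On the right the midbrain libraries lie at the upper left.

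Dendritic cell markers, from cells that carry class II at rest, summed to 227 to 300.2 CPM in the midbrain and 119 to 190 CPM in the striatum. Of the 9 tested in both cohorts together 8 were above 0, with a median of 1.49. In the pilot cohort 9 of 10 were above 0. In the second cohort 6 of 9 were, and Zbtb46 (-0.36), Itgae (-0.60) and Batf3 (-0.23) were below. Among the 9, 0 passed the adjusted p (limma), and 6 had an unadjusted p under 0.05, where 14.6% of all genes did. Within cohorts 2 passed the unadjusted p of 0.01 in the pilot cohort and 3 in the second, all higher in the midbrain. Of all genes tested, 2.09% and 2.88% did so. Defining markers were sparse, with Xcr1 at 0 to 17 counts, Clec9a at 0 to 16, Flt3 at 0 to 74 and Zbtb46 at 3 to 61. B cell markers summed to 673 to 769 CPM in the midbrain and 694 to 889 CPM in the striatum, most of it Ighm, and the defining Ms4a1, Pax5 and Cd79a had at most 2, 3 and 7 counts in a library. Igkc, the kappa light chain constant gene, had 4 to 526 counts and a log2 fold change of 1.54 in both cohorts together (limma, unadjusted p = 0.0023, adjusted p = 0.0944). Of the 4 B cell markers tested there, 2 were above 0 and 2 below, Ighm at -0.21 and Cd79b at -0.34. Monocyte markers summed to 177 to 2344 CPM in the midbrain and 82.6 to 218 CPM in the striatum, neutrophil markers to 1020.3 to 6500 and 794 to 998 CPM, and T and NK cell markers to 83.8 to 263 and 10.5 to 47.4 CPM. The T cell genes were sparse, with at most 1 count of Cd3e, 10 of Cd3d, 13 of Trac, 23 of Trbc2 and 43 of Cd4 in a library, and Trbc2 was at 2.06 and Cd4 at 1.40 on the log2 scale in both cohorts together (limma, adjusted p = 0.0887 and 0.218). Of these 3 lists 8, 8 and 5 markers were tested in both cohorts together. Of them 2, 4 and 1 passed, all higher in the midbrain, where 0.975% of all genes did. The 1 of the T and NK cell list was Nkg7. Above 0 were 8, 7 and 5, with the monocyte marker Cd300e at 0.02 and the neutrophil marker Csf3r at -0.26. The part of these cells in the class II difference was not tested.

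Across the 8 libraries, after the mean of each cohort was subtracted, the log2 CPM of 12668 genes was set beside the mean log2 CPM of H2-Aa, H2-Ab1, H2-Eb1 and Cd74. The libraries of a region share its difference, so the values describe likeness only. The 5 genes outside the class II list with the highest Pearson r were the class I heavy chain gene H2-D1 (0.995), the interferon-inducible GTPase gene Ifi47 (0.993), the aryl hydrocarbon receptor gene Ahr (0.991), the scavenger receptor gene Cd163 (0.990) and the interferon-inducible gene Ifi27l2a (0.988). Ahr and Ifi47 were sparsely counted, at a mean of 17.9 and 41.8 counts over the 8 libraries. Among the members Ciita stood at 0.992, rank 3 of all genes. H2-DMa (0.895, rank 396), H2-DMb1 (0.864) and H2-DMb2 (0.780) came later, H2-Ob was at 0.519, and H2-Oa was at -0.83. The regions overlapped for H2-Oa in the pilot cohort, however, and no fit called it. Reads of H2-D1 can be hard to tell from those of other class I genes.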

How the data were processed

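RNA of CD11b+ cells was sequenced in 10 bulk MARS-seq libraries. Per the labels, the authors used STAR 2.5.3a with the GRCm38 genome and then featureCounts 1.6.0 over exons of the Gencode M17 annotation, per the file headers, without strand and without reads that map to several places. They deposited raw counts per gene, which were not normalized. The counts per compared library ranged from 575709 to 8463782.

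Groups were taken from the titles. The 2 libraries whose title and file name give different regions stayed unassigned. Following the study's methods, a gene entered a fit unless over 50% of that fit's libraries had under 6 counts of it. The voom, lmFit and eBayes functions (limma 3.58.1, R 4.3.3) were run two-sided on all such genes after TMM normalization (edgeR 4.0.16). Calls used an unadjusted p under 0.01 within a cohort and a Benjamini-Hochberg adjusted p under 0.05, over all genes tested, for both cohorts together and for the interaction. CPM values use TMM factors over all 10 libraries, and log2 CPM a prior count of 2. Binomial intervals used SciPy 1.17.1. Permutation tests went through all 36 labelings within cohorts, in R for single genes and in Python for ratios. The fits were tested on simulated counts. DESeq2 1.42.0, edgeR's quasi-likelihood test, other filters and scalings, thinning, the replicate block, both placements of the unassigned libraries and leaving out each library were alternatives. The edgeR test of the interaction was added after seeing the data. Members, gene lists and markers were chosen with earlier results of these data known. One gene of the regulator list is not reported here. All 10 members are named in every cohort, and the likeness genes were the 5 highest by r.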

Additional observations from a re-analysis of the deposited data

Results flagged for a closer look

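The 2 libraries of the second cohort whose labels name both regions belong to no comparison, and the class II genes were above the limit of 3 counts in both. Their values were not used to settle their region. The library titled midbrain, with a file name of the striatum, held 1584013 counts. It had 165 CPM of H2-Aa, 108 of H2-Ab1, 94.2 of H2-Eb1, 105 of Cd74 and 7.64 of Ciita. The library titled striatum, with a file name of the midbrain, held 5194739 counts. It had 1654 CPM of H2-Aa, 922 of H2-Ab1, 810 of H2-Eb1, 947 of Cd74 and 36.1 of Ciita. The first was thus lower than the second for all 5 genes, against the direction of the titles and with that of the file names. H2-DMa was at 386 and 567 CPM and H2-Oa at 24.2 and 15.6 CPM in the first and second. The border macrophage markers summed to 288 and 1776 CPM.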

How the results depend on the processing

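The direction of the classical chains, Cd74 and Ciita held under every alternative run, in each cohort and together. With the 2 libraries of unsettled region added by title, 0 members passed in the second cohort and 0 in both cohorts together (limma), the medians of the classical chains, Cd74 and Ciita were 1.11 and 1.27 and those of the DM and DO genes 0.01 and 0.20. Added by file name, 5 passed in each. Fits without 1 library, where a lone library is assumed to vary like the others, called 2 to 7 members in the pilot cohort, 5 to 6 in the second, 0 to 5 in both together and 0 to 2 for the interaction. Other settings called 3 to 5, 4 to 5, 4 to 6 and 0. With library size only, H2-DMa (0.46) was called in the pilot cohort. H2-Eb1 was not called there with the quasi-likelihood test (1.51), DESeq2 (1.51) or thinned counts (1.91). Calls over all genes moved from 149 in both together to 544 with DESeq2, 237 with edgeR's quasi-likelihood test, 277 with no filter, 308 with the replicate block and 57 with at least 10 counts in every library. In the second cohort they moved from 468 to 988 with the block and 204 with the stricter filter, and in the pilot cohort from 395 to 822 with no filter. Without 1 library they ran from 0 to 238 in both together, 108 to 2445 in the pilot cohort (2445 without striatum replicate 1) and 393 to 1240 in the second (1240 without midbrain replicate 3). By title they were 0 in both together and 132 in the second cohort, of which 34.8% (46) were midbrain-high, against 82.9% of the 468. With no filter the median of all genes was -0.15 in the second cohort and -0.11 in both together.

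Values near 0 changed sign. In the pilot cohort H2-Oa was -0.0056 with the quasi-likelihood test, -0.0032 with DESeq2, -0.016 with no filter, -0.0061 with the block and from -0.066 to 0.070 without 1 library, and H2-Ob from -0.063 to 0.78. In the second cohort H2-Ob was -0.034 with library size only and from -0.15 to 0.27 without 1 library. By title, H2-DMb1 was -0.066 and H2-Oa 0.0090 there, and H2-Oa 0.047 in both together. For the interaction H2-DMb1 was 0.026 with the quasi-likelihood test, 0.0098 with the block and from -0.21 to 0.52 without 1 library, H2-DMb2 from -0.39 to 1.43 and H2-Ob from -0.76 to 0.023. The causes were not tested.

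The replicate numbers of titles and file names do not agree throughout the second cohort. The deviations of libraries with the same number in their titles had a correlation of -0.03 in the pilot cohort and 0.09 in the second. With only 2 such pairs per cohort, this cannot tell whether the libraries were paired by mouse. The numbers were not taken as pairs in the main fits. With the replicate block 5 members passed in the pilot cohort, the second and both together, and 0 for the interaction, and H2-Aa was the call gained in the pilot cohort. Depth limits H2-DMb2, Ciita and the DO genes most, since the shallowest library held 575709 counts.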
